A study of Mus musculus with 12 samples.

Results

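Expression of 9 genes used as markers of fetal-like, YAP-linked regeneration in the gut was followed across 12 RNA sequencing libraries of mouse small intestine. The genes were taken by name, as rows of the deposited count table: Yap1, Ccn1 (formerly Cyr61), Ccn2 (formerly Ctgf), Ankrd1, Krt7, Ly6a, Clu, Anxa1 and Il33. All 9 were found among the 55421 gene identifiers of the table. Of these identifiers 17394 had enough counts to be tested, among them 8 of the 9 genes. Ankrd1 had too few counts and is described by its counts alone.

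The libraries fell into 3 groups of 4. The group called Apc Eif3h was labelled VilCreER Apc fl/fl Eif3h fl/fl, with conditional alleles of both genes, and the group called Apc was labelled VilCreER Apcfl/fl. The remaining group was labelled Wild Type (WT), and the labels do not say whether it carried the Cre. VilCreER is a tamoxifen-inducible Cre recombinase driven by the villin promoter, so that recombination is directed to the epithelial cells of the gut and not to the stroma or blood cells of the same samples. The inducer tamoxifen was injected at 80 mg/kg on 2 occasions with 24 hours between them. The sample labels give day 4 for Apc Eif3h and Apc and day 7 for WT, while the treatment text gives day 7 for the harvest. Genotype and day therefore cannot be told apart in either comparison with WT. All 4 Apc Eif3h libraries were from males, and Apc and WT held 3 males and 1 female each. The age of the mice is not given in the sources used here. Nor do the labels state that every replicate was a separate animal, though Apc and WT, with both sexes, each came from more than 1 animal. The p-values speak for the spread among these 12 libraries. Libraries of the same group differed by more than counting error, with a mean chi-square per gene of 17.7 to 51.8 between pairs. How much of that spread lies between animals was not tested.

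YAP, the protein of Yap1, is a transcriptional coactivator that the Hippo kinase cascade holds in the cytoplasm. When the cascade is quiet, YAP and its relative TAZ enter the nucleus and bind TEAD factors, which recognise the letters CATTCC and so turn on targets such as Ccn1, Ccn2 and Ankrd1. In injured adult intestine, YAP activity accompanies a passing return to an expression pattern seen in the fetal gut, for which Ly6a, Clu, Krt7, Anxa1 and Il33 have served as markers. The Apc protein helps to destroy beta-catenin, the effector of Wnt signalling, and the eIF3h protein is a subunit of a translation initiation factor.

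Library totals were 14221414 to 21298301 counts in Apc Eif3h, 10483112 to 18621953 in Apc and 13915889 to 14589963 in WT. Eif3h itself was at 28.3, 43.1, 54.6 and 25.9 CPM (counts relative to the library total, scaled by TMM, edgeR's correction for composition) in the 4 Apc Eif3h libraries, against 158 to 175 in Apc and 126 to 142 in WT. The counts of Apc over the whole gene cover every exon and so do not test the loss of some of them. Summed over the gene, the Apc transcript rose 1.21-fold in Apc against WT (log2 fold change 0.28, adjusted p = 0.0177, up to 0.0577 and no longer called without Apc library 4 or WT library 1), and its log2 difference in Apc Eif3h against Apc was -0.12 (adjusted p = 0.427). The epithelial marker Epcam was high in every library, at 1148 to 1789 CPM in Apc Eif3h, 1435 to 1621 in Apc and 1540 to 2419 in WT. Of 8 epithelial markers, however, Vil1 and Krt20 fell in both comparisons with WT, and Cldn7 fell in Apc. Vil1 fell by 0.90 on the log2 scale in Apc Eif3h and by 0.73 in Apc. Of all tested genes 28.1% fell in Apc Eif3h against WT and 24.1% in Apc against WT. The 8 epithelial markers summed to 6532 to 9752 CPM in Apc Eif3h, 7307 to 8727 in Apc and 8833 to 12926 in WT. Apc Eif3h library 2 stood apart from the other 11, at -47.3 on the second principal component (13.2% of the variance), where the others lay between -18.2 and 23.3. It also held B cell transcripts far above the rest, and Clu and the marker sums that it raises are given below with and without it.

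Since TEAD factors tie YAP to DNA, the promoter letters of the genes are shown before their levels. RefSeq (GRCm38.p6) gave promoter entries for 6 of the 9 genes, as 7 windows of 250 bases ending just before an annotated start. Ccn2, Ly6a and Clu were not searched. Both strands were searched for CATTCC, the core TEAD letters (GGAATG on the other strand), and for CTTTGAT, the letters of the TCF and LEF factors that work with beta-catenin (ATCAAAG on the other strand). The TEAD letters were found in 6 of the 7 windows and in 5 of the 6 genes, namely Ankrd1, Anxa1, Ccn1, Il33 and Yap1, against 12.6% of the 32851 promoters in the collection. The TCF and LEF letters were in 0 of the 7 windows, against 3.21% of all promoters, so that no overlap between matches of the 2 motifs arose. At so low a share 0 of 7 is also the usual outcome for any 7 promoters, and nothing is read from it. Such a match is a run of letters and not a measured binding site. The windows below are those of Ccn1, which rose and holds a match, of Krt7, which rose and holds none, and of Anxa1 and Il33, which each fell in a comparison with WT. They run 5′ to 3′ on the strand of the gene, with TEAD letters in capitals. The Ccn1 window lies at chr3:145649986-145650235 on the minus strand and its match starts 103 bases before the annotated start. The Krt7 window lies at chr15:101412153-101412402 on the plus strand. The Anxa1 window lies at chr19:20390672-20390921 on the minus strand, with its match 236 bases before the start. The first of 2 Il33 windows lies at chr19:29924863-29925112 on the plus strand, with its match 131 bases before the start.
Ccn1: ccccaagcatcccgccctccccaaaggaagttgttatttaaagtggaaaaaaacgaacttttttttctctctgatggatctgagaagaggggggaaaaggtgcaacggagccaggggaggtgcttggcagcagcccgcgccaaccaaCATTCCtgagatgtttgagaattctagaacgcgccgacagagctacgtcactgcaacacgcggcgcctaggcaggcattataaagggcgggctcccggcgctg
Krt7: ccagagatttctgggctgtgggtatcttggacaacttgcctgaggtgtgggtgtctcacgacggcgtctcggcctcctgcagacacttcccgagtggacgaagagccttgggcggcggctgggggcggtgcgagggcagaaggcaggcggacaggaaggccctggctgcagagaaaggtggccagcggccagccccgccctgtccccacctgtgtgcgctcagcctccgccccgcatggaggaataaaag
Anxa1: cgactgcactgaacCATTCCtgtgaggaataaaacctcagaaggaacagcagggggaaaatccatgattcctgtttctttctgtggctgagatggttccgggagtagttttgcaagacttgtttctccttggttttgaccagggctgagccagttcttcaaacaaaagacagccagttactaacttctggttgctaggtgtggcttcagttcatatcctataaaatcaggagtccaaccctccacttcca
Il33: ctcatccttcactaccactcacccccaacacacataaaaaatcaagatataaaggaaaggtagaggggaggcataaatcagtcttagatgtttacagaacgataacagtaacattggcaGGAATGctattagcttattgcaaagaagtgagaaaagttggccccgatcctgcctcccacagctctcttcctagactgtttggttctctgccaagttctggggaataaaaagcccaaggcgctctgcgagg

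In Apc Eif3h against Apc, 2 of the 8 tested genes rose, Krt7 and Il33, and 0 fell (edgeR quasi-likelihood test, Benjamini-Hochberg adjustment over all 17394 genes, adjusted p under 0.05). Over all tested genes 7.05% passed, 4.27% as higher and 2.78% as lower. Neither gene had groups that did not overlap, a state met by 0 of the 8 genes and by 15.2% of all tested genes (7.89% higher, 7.26% lower). Both calls stood close to the threshold. Krt7 kept its call in 4 of the 12 fits that left out 1 library and Il33 in 3 of 12. Of 8 other settings Krt7 kept its call in 1 and Il33 in 2, and both were lost with library totals, males only, no filter on low counts, the 2 groups alone, a sex term or the replicate block.

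In Apc against WT, Yap1, Ccn1, Ccn2 and Krt7 rose and Il33 fell. That is 5 of 8 genes, beside 51.8% of all tested genes, with 27.7% called higher and 24.1% called lower, so the share among the 8 lay near the background. In Apc Eif3h against WT, the same 4 genes Yap1, Ccn1, Ccn2 and Krt7 rose and Anxa1 fell, again 5 of 8 and again near the background, beside 57.8% of all tested genes, 29.8% higher and 28.1% lower. Groups did not overlap for Ccn1, Ccn2, Krt7 and Il33 in Apc against WT, and for Yap1, Ccn1, Ccn2, Krt7 and Anxa1 in Apc Eif3h against WT. That is 4 genes and 5 genes. Of all tested genes 48.8% had groups apart in Apc against WT (26.7% higher, 22% lower) and 47.7% in Apc Eif3h against WT (26.9% higher, 20.7% lower). The median log2 fold change of the 8 genes was 0.24 in Apc Eif3h against Apc, 0.28 in Apc against WT and 0.82 in Apc Eif3h against WT, beside -0.0019, -0.0099 and -0.03 over all tested genes. Each group enters more than 1 of the 3 comparisons, so the values of one comparison are no independent check of another. In tissue samples such as these, a change in the number of cells of a type and a change in RNA per cell cannot be told apart.

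**Figure D1:**
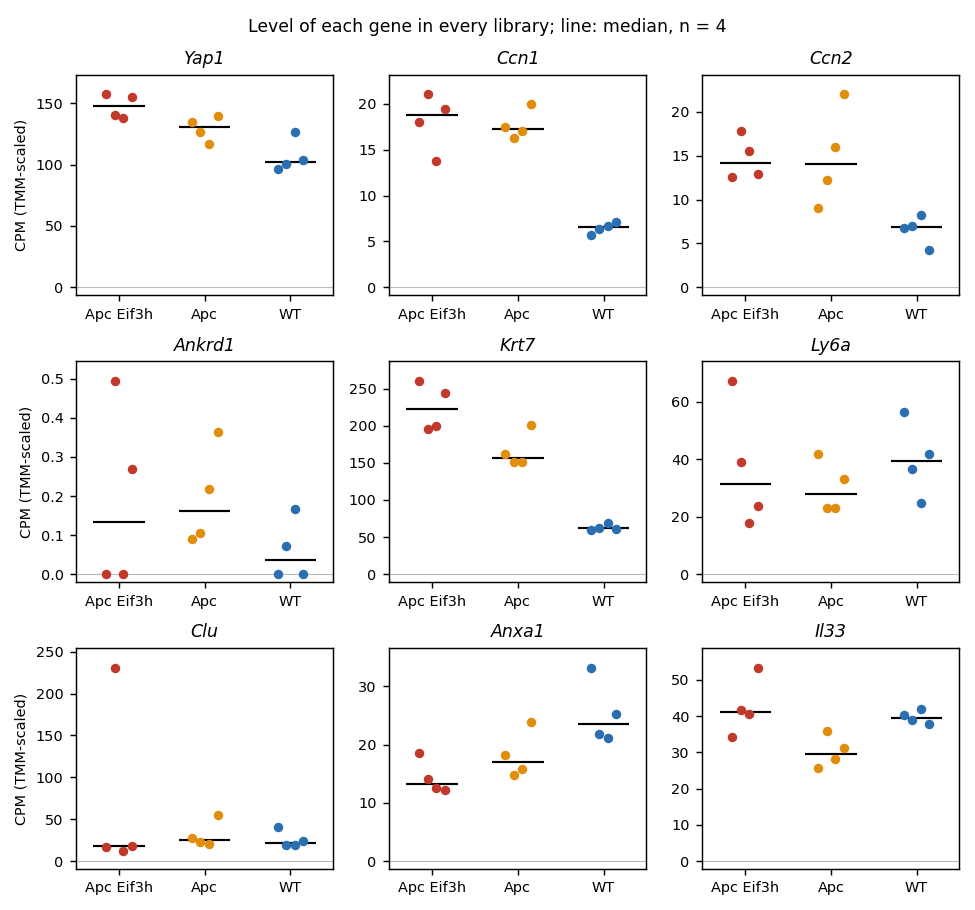
Level of each of the 9 genes in CPM (scaled by TMM; y axis, starting at or below 0) in the 4 libraries of Apc Eif3h, Apc and WT, with a line at the median. Ccn1, Ccn2 and Krt7 lay lower in all 4 WT libraries than in the other 8 libraries, and Clu was at 231 CPM in Apc Eif3h library 2 alone.

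The transcript of YAP itself changed by a small amount. Yap1 (ENSMUSG00000053110, GRCm38 chr9:7931999-8004596, minus strand) was at 158, 140.1, 138 and 156 CPM in Apc Eif3h, at 135, 127, 117 and 140 CPM in Apc and at 96.5, 100.1, 127 and 104 CPM in WT. Every Apc Eif3h library lay above every WT library, while Apc overlapped both other groups. Yap1 rose 1.38-fold in Apc Eif3h against WT (log2 fold change 0.47, SE 0.10, adjusted p = 0.00128) and 1.21-fold in Apc against WT (0.28, SE 0.10, adjusted p = 0.0278). The smaller of these changes lost its call in 5 of the 12 fits without 1 library, namely without Apc library 1 (adjusted p = 0.0687) or 4 (0.0824) or without WT library 1 (0.0815), 2 (0.0748) or 4 (0.0666). Between Apc Eif3h and Apc the log2 difference was 0.19, with a 95% interval of -0.02 to 0.40 and an adjusted p of 0.250.

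Ccn1 and Ccn2 encode secreted matricellular proteins, which sit in the extracellular matrix and signal through integrins, and are among the most used readouts of YAP and TEAD activity. Both rose more than 2-fold against WT in each group with floxed Apc, and neither passed the test between Apc Eif3h and Apc. Ccn1 (ENSMUSG00000028195, chr3:145646976-145649981, minus strand) was at 18.05, 21.1, 13.8 and 19.5 CPM in Apc Eif3h, at 17.5, 16.3, 17.1 and 19.98 CPM in Apc and at 5.66, 6.41, 6.65 and 7.17 CPM in WT. The lowest library of the first 2 groups stood well above the highest WT library. Ccn1 rose 2.80-fold in Apc Eif3h against WT (log2 fold change 1.48, SE 0.14, adjusted p = 7.01e-06) and 2.73-fold in Apc against WT (1.45, SE 0.14, adjusted p = 1.6e-05). Between Apc Eif3h and Apc the log2 difference was 0.03, with a 95% interval of -0.25 to 0.32.

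Ccn2 (ENSMUSG00000019997, chr10:24595442-24598683, plus strand) was at 12.6, 17.8, 15.5 and 12.9 CPM in Apc Eif3h, at 9.08, 12.2, 15.99 and 22.1 CPM in Apc and at 6.82, 6.98, 8.23 and 4.20 CPM in WT. Its 4 Apc libraries spread over the whole range of the Apc Eif3h libraries and beyond it on both sides, and the lowest of them came close to the highest WT library. Ccn2 rose 2.24-fold in Apc Eif3h against WT (log2 fold change 1.16, SE 0.26, adjusted p = 0.00245) and 2.28-fold in Apc against WT (1.19, SE 0.26, adjusted p = 0.00255). The log2 difference between Apc Eif3h and Apc was -0.02, with a 95% interval of -0.56 to 0.51, so a difference of moderate size in either direction was not detectable for Ccn2. The calls of Ccn1 and Ccn2 against WT were kept in all 12 fits that left out 1 library and in all 8 other settings tried.

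Ankrd1, another YAP target, encodes an ankyrin repeat protein best known as a stress-induced nuclear cofactor of muscle cells. It was scarcely detected. Ankrd1 (ENSMUSG00000024803, chr19:36111961-36120099, minus strand) had 0, 8, 0 and 6 counts in Apc Eif3h, 1, 2, 4 and 7 counts in Apc and 0, 1, 2 and 0 counts in WT. The sums were 14 counts in Apc Eif3h, 14 in Apc and 3 in WT. In the 4 libraries with 0 counts, a level of up to 0.186 to 0.247 CPM (the value of 3 counts, counting error only) would not have been seen. A difference between groups was not detectable at this depth.

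Krt7 gave the largest rises among the 8 tested genes in Apc Eif3h against WT. It encodes keratin 7, an intermediate filament protein of simple and ductal epithelia. Krt7 (ENSMUSG00000023039, chr15:101411043-101430313, plus strand) was at 260.5, 196, 199.5 and 245 CPM in Apc Eif3h, at 162, 151, 151 and 202 CPM in Apc and at 59.4, 62.3, 69.4 and 60.9 CPM in WT. All 8 libraries with floxed Apc were more than double the highest WT library, and Apc Eif3h overlapped Apc through a single library, Apc library 4. Krt7 rose 3.57-fold in Apc Eif3h against WT (log2 fold change 1.84, SE 0.12, adjusted p = 2.19e-06) and 2.64-fold in Apc against WT (1.40, SE 0.12, adjusted p = 9.28e-06). It held rank 344 from the highest fold change among 17394 genes in Apc Eif3h against WT, and these calls were kept in all settings tried.

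Krt7 also rose 1.35-fold in Apc Eif3h against Apc (log2 fold change 0.44, SE 0.12, adjusted p = 0.0441, mean 225 ± 32.3 CPM in Apc Eif3h and 166 ± 24.0 CPM in Apc, SD, n = 4 each). Without 1 library its log2 fold change lay between 0.36 and 0.54, always higher in Apc Eif3h, and its adjusted p between 0.0238 and 0.139. The call was lost without Apc Eif3h library 1 (adjusted p = 0.112) or 4 (0.111), without Apc library 1 (0.0935), 2 (0.113) or 3 (0.139) and without WT library 1 (0.0530), 2 (0.0592) or 4 (0.0586). Without Apc Eif3h library 2, the one that stands apart, the value was 0.50 and the adjusted p 0.0447.

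**Figure D2:**
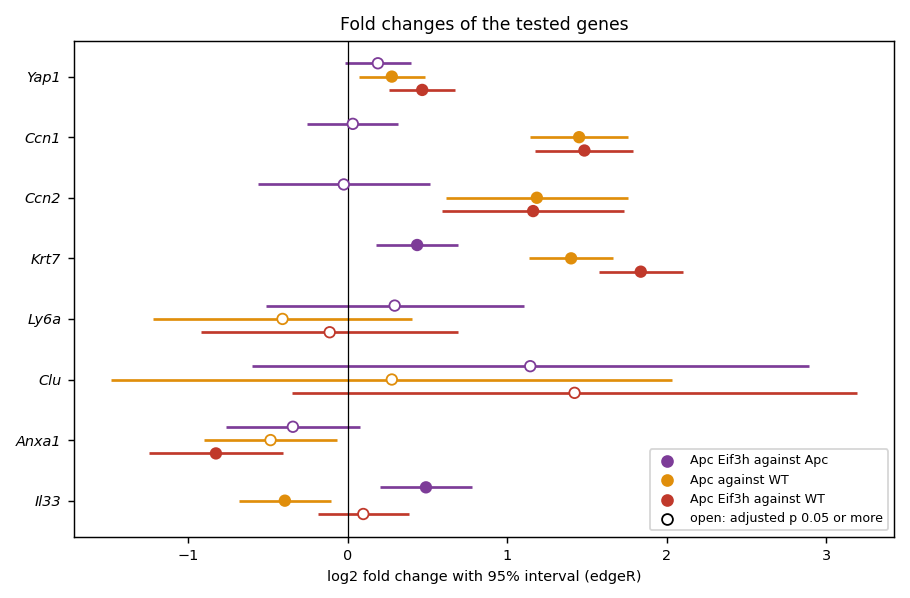
log2 fold change with its 95% interval (x axis, edgeR) of the 8 tested genes in Apc Eif3h against Apc, Apc against WT and Apc Eif3h against WT; filled points had an adjusted p under 0.05. The intervals of Ccn1, Ccn2 and Krt7 lie right of 0 in both comparisons with WT, and the interval of Clu runs from -0.60 to 2.89 in Apc Eif3h against Apc.

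Il33 followed another order, lowest in Apc. It encodes interleukin 33, a cytokine kept in the nucleus of epithelial, endothelial and stromal cells and released on damage. Il33 (ENSMUSG00000024810, chr19:29925114-29960718, plus strand) was at 34.1, 41.8, 40.5 and 53.3 CPM in Apc Eif3h, at 25.6, 35.7, 28.0 and 31.3 CPM in Apc and at 40.2, 38.8, 41.8 and 37.7 CPM in WT. The Apc libraries all lay below the WT libraries, and Apc Eif3h surrounded WT. Il33 rose 1.41-fold in Apc Eif3h against Apc (log2 fold change 0.49, SE 0.13, adjusted p = 0.0437) and fell in Apc against WT, 1.31-fold lower (-0.39, SE 0.13, adjusted p = 0.0254). The log2 difference in Apc Eif3h against WT was 0.10, with a 95% interval of -0.19 to 0.39. The first 2 of these values share the Apc libraries, so that a low reading in those 4 libraries moves both.

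The Il33 calls were less stable than those of Ccn1 or Krt7 against WT. The log2 fold change in Apc Eif3h against Apc lay between 0.36 and 0.58 without 1 library, higher in Apc Eif3h in each fit, with adjusted p between 0.0296 and 0.133. The call held without Apc Eif3h library 1 or 3 or Apc library 2 and was lost without Apc Eif3h library 2 (adjusted p = 0.0807) or 4 (0.109), Apc library 1 (0.103), 3 (0.133) or 4 (0.0786), and WT library 1 (0.0545), 2 (0.0585), 3 (0.0526) or 4 (0.0570). The call in Apc against WT was lost without Apc library 1 (0.0769) or 3 (0.0664) or WT library 3 (0.0583). Scaling by library totals alone gave -0.16 (adjusted p = 0.329) for Apc against WT, under which the median of all genes stood at 0.22.

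Anxa1 was lower in the groups with floxed Apc. It encodes annexin A1, a phospholipid-binding protein that dampens inflammation and is made by epithelial and myeloid cells. Anxa1 (ENSMUSG00000024659, chr19:20373428-20390944, minus strand) was at 18.6, 14.0, 12.5 and 12.2 CPM in Apc Eif3h, at 18.2, 14.8, 15.8 and 23.8 CPM in Apc and at 33.2, 21.8, 21.2 and 25.2 CPM in WT. Every Apc Eif3h library lay below every WT library, and Apc library 4 reached into the WT range. Anxa1 fell in Apc Eif3h against WT, 1.77-fold lower (log2 fold change -0.82, SE 0.19, adjusted p = 0.00303), a call kept in all settings tried. The log2 difference of -0.48 in Apc against WT (SE 0.19) missed the threshold (adjusted p = 0.0507) and passed it in 4 of the 12 fits without 1 library, namely without Apc Eif3h library 1 (0.0364), Apc library 4 (0.0164) and WT library 2 (0.0461) or 3 (0.0406). Between Apc Eif3h and Apc it was -0.34, with a 95% interval of -0.76 to 0.08.

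Ly6a encodes Sca-1, a membrane-anchored surface protein used to mark the fetal-like epithelium that forms over healing ulcers. It is also made by endothelium and lymphocytes and induced by interferon. Ly6a (ENSMUSG00000075602, chr15:74994877-74998031, minus strand) was at 67.4, 39.2, 17.99 and 23.7 CPM in Apc Eif3h, at 41.9, 22.9, 23.0 and 33.1 CPM in Apc and at 56.6, 36.7, 24.6 and 41.9 CPM in WT. The 3 ranges overlapped throughout, and within Apc Eif3h the SD was 59.7% of the mean. Its log2 fold change was 0.30 in Apc Eif3h against Apc (95% interval -0.51 to 1.103), -0.41 in Apc against WT (-1.22 to 0.40) and -0.11 in Apc Eif3h against WT (-0.92 to 0.69). All 3 intervals span 0, and differences within them were not detectable. Of 20 interferon-stimulated genes 7 fell in Apc Eif3h against WT and 9 in Apc against WT. Of all tested genes 28.1% and 24.1% fell in the same order, so the 7 of 20 lay near the background. Summed levels of the 20 genes were 786 to 1159 CPM in Apc Eif3h, 796 to 938 in Apc and 891 to 2203 in WT. The library with the highest sum in each group (Apc Eif3h 1, Apc 1 and WT 1) was also the one with the highest Ly6a. The part of these genes in the Ly6a levels was not tested.

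Clu encodes clusterin, a secreted chaperone that marks rare revival stem cells of the injured intestine. It is also a well-known product of follicular dendritic cells, the stromal cells that hold antigen in B cell follicles. Clu (ENSMUSG00000022037, chr14:65968483-65981547, plus strand) was at 16.6, 231, 12.1 and 18.3 CPM in Apc Eif3h, at 28.0, 22.3, 20.5 and 54.6 CPM in Apc and at 40.8, 19.7, 19.5 and 23.6 CPM in WT. Apart from Apc Eif3h library 2, all libraries lay between 12.1 and 54.6 CPM, with the other Apc Eif3h libraries at the low end. With all libraries the log2 fold change was 1.14 in Apc Eif3h against Apc (SE 0.81, adjusted p = 0.421) and 1.42 in Apc Eif3h against WT (SE 0.82, adjusted p = 0.152). Without Apc Eif3h library 2 the same comparisons gave -0.9997 (adjusted p = 0.136) and -0.72 (adjusted p = 0.101). The sign of both Clu values was thus set by that library, and none of the 4 passed the test. Clu in Apc against WT had a value of 0.28, with a 95% interval of -1.48 to 2.04.

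The same library held the transcripts of B cell follicles. Its 7 B cell markers summed to 945 CPM, against 12.5 to 15.2 in the other Apc Eif3h libraries, 14.1 to 19.0 in Apc and 25.9 to 158 in WT. The immunoglobulin heavy chain gene Ighm was at 462 CPM and the B cell receptor subunit gene Cd79a at 83.8 CPM in it. Follicular dendritic cell genes were a list added after the values had been seen (Cr2, Cxcl13, Fcer2a, Madcam1 and Coch). These genes summed to 204 CPM in the same library, against 3.78 to 9.68 in the other 11 libraries. Among them Cr2, a complement receptor that is also 1 of the 7 B cell markers and so enters both sums, was at 81.4 CPM and Cxcl13, the chemokine that draws B cells into follicles, at 55.4 CPM. The part of such cells in the Clu level was not tested.

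**Figure D3:**
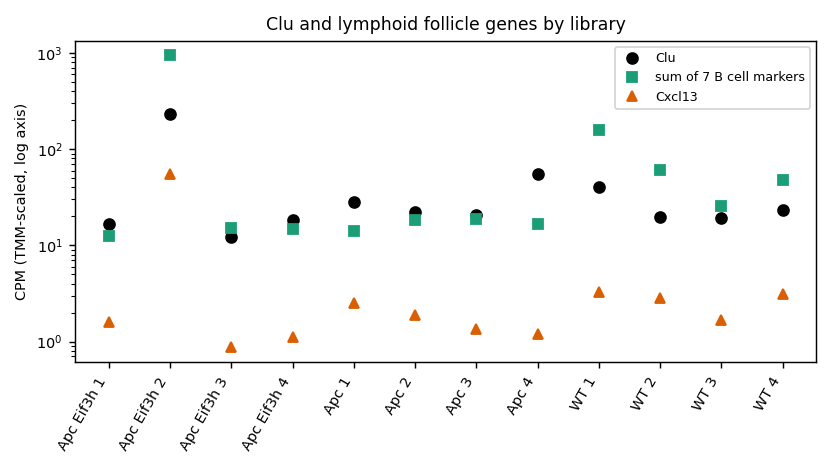
Level in CPM (log axis) of Clu, of the sum of 7 B cell markers and of Cxcl13 in each of the 12 libraries. All 3 stand highest in Apc Eif3h library 2, at 231, 945 and 55.4 CPM.

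Compared per kilobase of annotated exon, so that genes of different length can be set side by side, Krt7 led in Apc Eif3h and Ly6a in Apc and in WT. In Apc Eif3h the median levels in CPM per kilobase were 31.5 for Krt7, 26.1 for Ly6a, 15.97 for Yap1, 14.2 for Il33, 9.29 for Ccn1, 5.07 for Clu, 4.97 for Ccn2, 4.55 for Anxa1 and 0.0464 for Ankrd1. In Apc they were 23.3 for Ly6a, 22.2 for Krt7, 14.1 for Yap1, 10.3 for Il33, 8.55 for Ccn1, 7.31 for Clu, 5.84 for Anxa1, 4.93 for Ccn2 and 0.0558 for Ankrd1. In WT they were 32.6 for Ly6a, 13.7 for Il33, 11.03 for Yap1, 8.74 for Krt7, 8.07 for Anxa1, 6.30 for Clu, 3.24 for Ccn1, 2.41 for Ccn2 and 0.0123 for Ankrd1. Krt7 thus stood below Ly6a, Il33 and Yap1 in WT and at or next to the top in the other groups, and Ccn1 stood above Clu and Anxa1 in these but not in WT. In every group Ankrd1 was the lowest, clear of the gene above it. Of the other neighbours, Il33 stood clear above Ccn1 in Apc Eif3h, Krt7 above Yap1 and Yap1 above Il33 in Apc, and Ly6a above Il33, Yap1 above Krt7 and Clu above Ccn1 in WT. The remaining neighbours overlapped between libraries.

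Other genes of the pathway came from lists of known members. Among 29 genes of the Hippo cascade and the TEAD factors, 0 rose and 1 fell in Apc Eif3h against Apc, 8 rose and 3 fell in Apc against WT, and 13 rose and 5 fell in Apc Eif3h against WT, with median log2 fold changes of -0.01, 0.09 and 0.06. The shares of all tested genes called higher and lower were 27.7% and 24.1% in Apc against WT and 29.8% and 28.1% in Apc Eif3h against WT. In Apc Eif3h against Apc they were 4.27% and 2.78%. The 8 of 29 that rose in Apc against WT were thus at the background, and the 1 of 29 that fell in Apc Eif3h against Apc was near it. The gene that fell was Tead2, 1 of the 4 TEAD factors. It was at 13.97, 11.1, 11.4 and 11.6 CPM in Apc Eif3h, at 25.3, 19.8, 18.4 and 20.2 CPM in Apc and at 5.73, 5.27, 6.07 and 4.78 CPM in WT, and all 3 groups were apart. Tead2 fell by 0.80 on the log2 scale in Apc Eif3h against Apc (SE 0.13, adjusted p = 0.00502) and kept this call in all 12 fits without 1 library and all 8 other settings. Against WT it rose by 1.13 in Apc Eif3h and by 1.93 in Apc (adjusted p = 2.7e-05 and 2.29e-06). Ajuba, a LIM protein that inhibits the LATS kinases, rose by 2.42 in Apc Eif3h and by 1.55 in Apc against WT (adjusted p = 2.8e-05 and 0.000876). Vgll4, which competes with YAP for TEAD factors, rose by 0.97 and by 1.01 in the same order (adjusted p = 0.000282 and 0.000296). Without Apc Eif3h library 4 the count called in Apc Eif3h against WT was 11. Scaling by library totals moved the balance to 15 higher and 1 lower in each comparison with WT.

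The rise of Ccn1 and Ccn2 was not shared by most other listed YAP and TAZ targets. Of 19 such genes, 3 of them also on the Hippo list, 1 rose and 11 fell in Apc Eif3h against WT and 3 rose and 8 fell in Apc against WT, with medians of -0.42 and -0.25. Of all tested genes 29.8% rose and 28.1% fell in Apc Eif3h against WT, and 27.7% rose and 24.1% fell in Apc against WT. Both edgeR and DESeq2 called 0 of 19 in Apc Eif3h against Apc, with a median of -0.11. Of all tested genes edgeR called 7.05% there. An unadjusted p under 0.05 (edgeR) was met by 1 of the 19 (Axl, a receptor tyrosine kinase, log2 difference -0.45). It was met by 8 of the 29 Hippo and TEAD genes and by 9 of the 34 tested genes of the fetal-like list below. The share of all tested genes under that unadjusted threshold was not counted. F3, which encodes tissue factor, rose by 0.88 in Apc Eif3h and by 1.04 in Apc against WT (adjusted p = 0.000239 and 0.000103). Igfbp3, which binds insulin-like growth factors, fell by 1.21 and by 1.33 in the same order (adjusted p = 5.46e-05 and 4.83e-05). Foxf2, a transcription factor of gut mesenchyme and thus of stromal cells, fell by 0.80 in Apc against WT (adjusted p = 0.00158). Gadd45a, a growth arrest gene, fell by 0.77 in Apc Eif3h against WT (adjusted p = 0.00117). Foxf2 was also called lower in Apc Eif3h against WT in all 12 fits without 1 library (-0.90 to -0.73). Gadd45a was called lower in Apc against WT in all 12 (-0.67 to -0.49), but not with library totals or males only. Scaling by library totals gave 4 higher and 6 lower in Apc Eif3h against WT and 3 higher and 4 lower in Apc against WT. Without Apc library 3 the count called in Apc against WT was 7.

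A list of 37 other fetal-like and regenerative genes had 34 tested members. Of these, 14 rose and 6 fell in Apc Eif3h against WT and 12 rose and 5 fell in Apc against WT, with medians of 0.23 and 0.02. These 20 and 17 called genes of 34 lay near the background, since 57.8% and 51.8% of all tested genes were called. Krt23, another keratin gene, rose by 2.27 in Apc Eif3h and by 2.49 in Apc (adjusted p = 3.95e-06 and 2.31e-06). Areg, which encodes the EGF receptor ligand amphiregulin, rose by 2.61 in Apc Eif3h against WT (adjusted p = 3.95e-06), and Tnfrsf12a, the receptor of the cytokine TWEAK, by 2.34 (adjusted p = 8.53e-06). In Apc against WT the hyaluronan receptor gene Cd44 rose by 2.30 (adjusted p = 1.65e-05) and Marcksl1, which encodes an actin-linked substrate of protein kinase C, by 2.29 (adjusted p = 1.59e-05). Areg, Tnfrsf12a, Cd44 and Marcksl1 were each called higher in the other comparison with WT too, in all 12 fits without 1 library and all 8 other settings. Over the 12 fits, Areg rose by 1.68 to 2.01 and Tnfrsf12a by 1.41 to 1.74 in Apc against WT. Cd44 rose by 1.95 to 2.22 and Marcksl1 by 1.39 to 1.64 in Apc Eif3h against WT. The median was -0.06 in Apc Eif3h against Apc, where 1 gene rose, Areg (0.73, adjusted p = 0.038), and 1 fell, Marcksl1 (-0.79, adjusted p = 0.041). Both counts lay near the background there, with 4.27% of all tested genes called higher and 2.78% lower. Areg kept that call in 5 of the 12 fits without 1 library and lost it without Apc Eif3h library 1, 2 or 4, Apc library 1, 2 or 3 or WT library 4, with adjusted p up to 0.119. Marcksl1 kept it in 4 of 12 and lost it without Apc Eif3h library 3 or 4, Apc library 1, 2 or 4 or WT library 1, 2 or 4, with adjusted p up to 0.109. Of the 8 other settings Areg kept its call in 4 and Marcksl1 in 2. Among the 12 fits, 0 to 4 of the 34 genes were called higher and 0 to 2 lower.

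**Figure D4:**
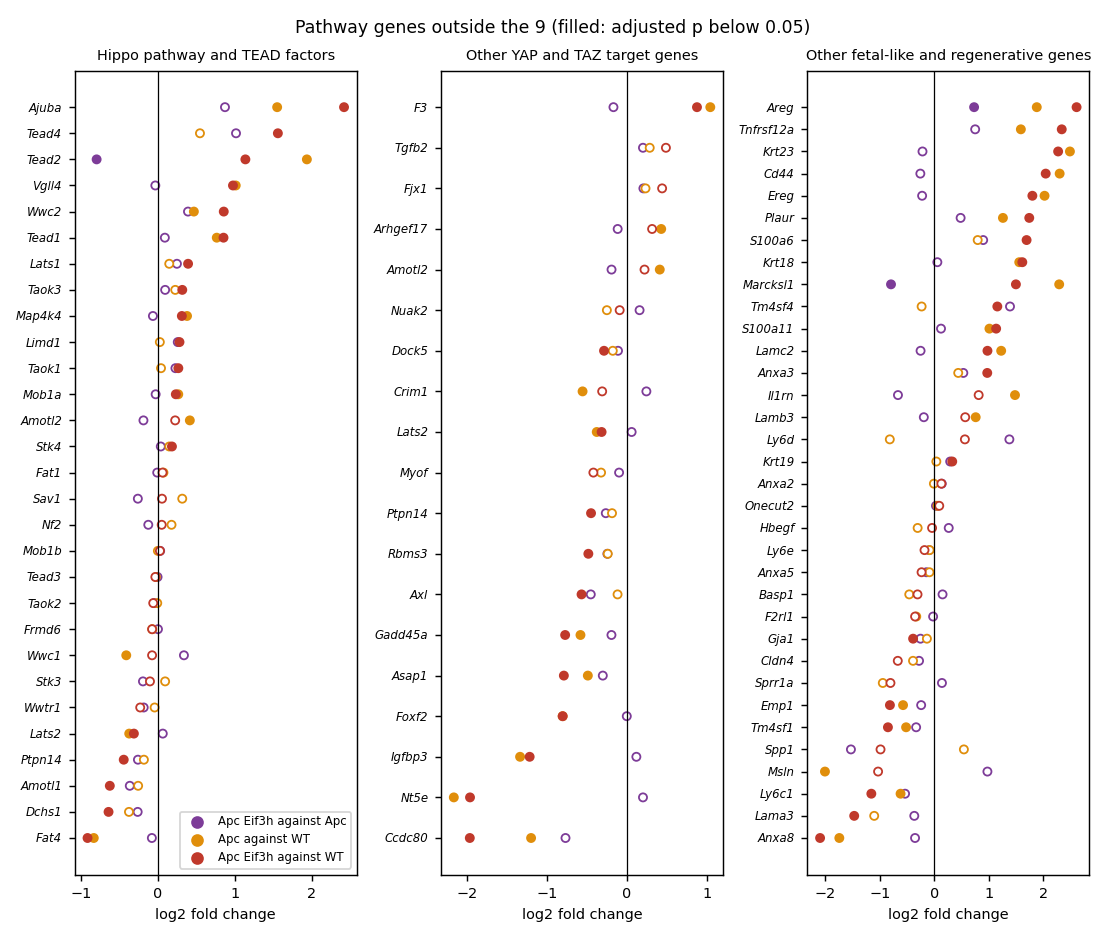
log2 fold change (x axis, edgeR) of 29 Hippo and TEAD genes, 19 other YAP and TAZ targets and 34 other fetal-like genes in Apc Eif3h against Apc, Apc against WT and Apc Eif3h against WT; filled points had an adjusted p under 0.05. Of the YAP and TAZ targets 11 fell and 1 rose in Apc Eif3h against WT, while 14 of the fetal-like genes rose and 6 fell.

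Some markers of cell types outside the epithelium fell in the comparisons with WT. Beside the counts below, 28.1% of all tested genes fell in Apc Eif3h against WT and 24.1% in Apc against WT. The 4 of 12 fibroblast markers that fell in Apc lay near that share. Of 12 fibroblast markers 10 fell in Apc Eif3h and 4 in Apc against WT, with summed levels of 958 to 1160 CPM in Apc Eif3h, 1200 to 1741 in Apc and 1462 to 2528 in WT. Of 10 smooth muscle markers 6 fell in each comparison with WT, with sums of 1478 to 2109 CPM in Apc Eif3h, 1710 to 1988 in Apc and 2115 to 3290 in WT, and the Apc Eif3h sums reached 1876 CPM without library 2. Of 10 endothelial markers 8 fell in Apc Eif3h and 6 in Apc against WT, with sums of 184 to 242 CPM in Apc Eif3h, 208 to 264 in Apc and 230 to 418 in WT, and the Apc Eif3h sums reached 207 CPM without library 2. Of 6 mesothelial markers 5 fell in Apc Eif3h and 6 in Apc against WT, with sums of 17.5 to 29.8 CPM in Apc Eif3h, 4.96 to 31.0 in Apc and 48.2 to 78.3 in WT. Of 8 enteric neuron and glia markers 6 fell in Apc Eif3h and 4 in Apc against WT, with sums of 20.2 to 26.4 CPM in Apc Eif3h, 23.7 to 30.5 in Apc and 34.2 to 43.6 in WT. Fibroblasts and endothelium are also known to express Ccn1, Ccn2 and Il33. Of 9 tested macrophage and neutrophil markers 6 fell in Apc Eif3h and 5 in Apc against WT, with sums of 224 to 449 CPM in Apc Eif3h, 256 to 309 in Apc and 283 to 780 in WT. The 449 CPM was that of Apc Eif3h library 2, and the other 3 libraries of the group lay at 224 to 255. Of 13 tested T cell and cytotoxic markers 9 fell in Apc Eif3h and 11 in Apc against WT, with sums of 107 to 195 CPM in Apc Eif3h, 98.9 to 157 in Apc and 177 to 570 in WT, and the Apc Eif3h sums reached 139 CPM without library 2. WT library 1 had the highest macrophage and neutrophil sum, the highest B cell sum of WT and the highest Anxa1, Ly6a and Clu of WT. The part of these cell types in the levels of the 9 genes was not tested. Of the 12 fibroblast markers edgeR called 0 in Apc Eif3h against Apc, where 2.78% of all tested genes were called lower, and DESeq2 called 2. An unadjusted p under 0.05 (edgeR) was met there by 8 of the 12, all lower. The share of all tested genes under that unadjusted threshold was not counted, so the 8 of 12 have no background to be set against.

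Across the 12 libraries, after the mean of each group was subtracted, Ly6a and Anxa1 moved most closely together among the 8 genes (Pearson r = 0.80), followed by Yap1 and Krt7 (0.78), while Ly6a and Il33 ran opposite (-0.58). These are descriptions over 12 libraries that share tissue make-up and depth. Each closest gene below is the highest of 12315 values over these libraries. A large r can arise from such picking alone, which was not tested. Among 12315 genes with a mean log2 CPM of 1 or more the closest to Yap1 was Fam84b (0.96), to Krt7 Fhl2 (0.95), to Ccn1 Krt23 (0.94), to Ccn2 Meg3 (0.92), to Ly6a Tcf19 (0.94), to Clu Tnfaip8 (0.97), to Anxa1 Smyd3 (0.93) and to Il33 Zfp961 (0.90). Next after these came Pkp4 and Tmem43 for Yap1, Plscr3 and Exoc8 for Krt7, Ube2d1 for Ccn1, and Rian and Nrep for Ccn2. For the other genes they were Ecscr and Mmp3 for Ly6a, Rassf2 and Gga2 for Clu, Bub3 and Thoc6 for Anxa1, and Tmem38a and Dgkd for Il33. The Clu values behind its correlations include the 231 CPM of Apc Eif3h library 2.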

How the data were processed

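RNA of mouse small intestine was sequenced from TruSeq libraries, per the labels' protocols. The authors deposited raw counts, whole numbers per gene and library, in 1 table. Named in the submitters' processing notes are featureCounts 1.6.4, HISAT2 2.1.0, Trim Galore 0.6.4, FastQC 0.11.8 and the build GRCm38. The sources used here give no strand setting, annotation or treatment of multiply mapping reads, so reads of near-identical copies or antisense neighbours (Ly6a belongs to a multigene family) can be split or mixed in ways these counts do not show.

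Libraries were grouped by titles and genotypes. Of 55421 gene identifiers 55240 matched GENCODE M21, the source of symbols, coordinates and exon lengths, and the 181 others held 0.00226% of counts. The test was the quasi-likelihood test of edgeR 4.0.16 under R 4.3.3 (filterByExpr, TMM, glmQLFit, glmQLFTest) over all 12 libraries with 1 mean per group, adjusted by Benjamini-Hochberg over 17394 genes, with calls at an adjusted p under 0.05. Standard errors are the absolute log2 fold change over the square root of F. Levels are CPM after TMM scaling, shown per library since the spread between libraries exceeds counting error. Likeness is Pearson's r of log2 CPM (prior count 2) after group means were subtracted. Fits were tested on simulated data.

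The 9 genes, the gene lists and the naming rule were chosen with earlier results of these data known. The rule named all 9 genes, up to 3 called genes with the smallest p per list and comparison (all where 5 or fewer were called), and for each tested gene the 3 with the most alike pattern, leaving out predicted models, receptor segments and sex-linked genes; 1 gene it named is not reported here. Axl, Epcam, Ighm, Cd79a and the follicular dendritic cell genes were named after their values were seen. Alternatives were DESeq2 1.42.0, its size factors, library totals, no filter, males only, a sex term, the 2 groups alone, a replicate block and leaving out each library.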

Additional observations from a re-analysis of the deposited data

Results flagged for a closer look

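Clu was at 231 CPM in Apc Eif3h library 2, against 12.1 to 18.3 CPM in the other 3 Apc Eif3h libraries, a gap too large for a set of 4 by Dixon's criterion. It was the only one of 27 sets (9 genes in 3 groups) to be picked out, where chance alone picks out about 1 in 20. In the same library the sum of 7 B cell markers was 945 CPM and that of 5 follicular dendritic cell genes 204 CPM (Cr2 is in both sums), and their part in the Clu level was not tested.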

How the results depend on the processing

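Ccn1, Ccn2 and Krt7 in both comparisons with WT, and Yap1 and Anxa1 in Apc Eif3h against WT, kept direction and call in all 20 alternative fits. The 2 calls among the 8 genes in Apc Eif3h against Apc became 0 with library totals, males only, no filter, the 2 groups alone, a sex term or the replicate block, 1 with DESeq2 size factors, and 0 to 2 without 1 library. The count over all genes there, 1226, was 659 for males only, 817 without the filter, 1755 with DESeq2 and 406 (without Apc library 3) to 1767 (without Apc Eif3h library 3) without 1 library. In Apc against WT the 5 calls became 3 for males only and 3 (without Apc library 1) to 6 without 1 library.

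Yap1 in Apc against WT also lost its call with DESeq2 (adjusted p = 0.054), DESeq2 size factors (0.0579) and males only (0.130), and Il33 there with males only (0.097), no filter (0.0717) and library totals (0.329). Anxa1 there passed with DESeq2 (0.048), DESeq2 size factors (0.0465) and the replicate block (0.0282).

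Reversed log2 fold changes were all of values that did not pass the test. In Apc Eif3h against Apc they were, for Ccn2, 0.04 without Apc Eif3h library 1 or 4, 0.01 without Apc library 3 and 0.23 without Apc library 4. For Ccn1 they were -0.047 without Apc Eif3h library 2, -0.0035 without Apc Eif3h library 4 and -0.0064 without Apc library 2, for Ly6a -0.16 without Apc Eif3h library 1 and for Clu -0.9997 without Apc Eif3h library 2. In Apc against WT, Clu was -0.14 without Apc library 4. In Apc Eif3h against WT, Ly6a was 0.094 with library totals, 0.14 and 0.06 without Apc Eif3h library 3 or 4 and 0.10 without WT library 1, Clu was -0.72 without Apc Eif3h library 2 and Il33 was -0.031 without Apc Eif3h library 4. The cause was not tested. Over the fits without 1 library, the values in Apc Eif3h against Apc ran to 0.16 for Ccn1, -0.19 for Ccn2, 0.55 for Ly6a and 1.56 for Clu, those in Apc against WT to 0.58 for Clu, and those in Apc Eif3h against WT to -0.57 for Ly6a, 1.79 for Clu and 0.19 for Il33.

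Library totals moved the median of all genes to 0.22 in Apc against WT and 0.17 in Apc Eif3h against WT, and the share of calls that were higher to 74.0% and 67.5%, beside 53.5% and 51.5% with TMM. It was 49.8% in Apc Eif3h against Apc, beside 60.6%.

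The labels do not say whether equal replicate numbers pair the libraries, and the correlations between libraries did not settle it. Deviations of same-numbered libraries correlated above 0.1 in 2, 1 and 1 of 4 pairs in Apc Eif3h against Apc, Apc against WT and Apc Eif3h against WT, and 5, 2 and 1 of 8 libraries correlated best with their own number. With the replicate block 0, 6 and 5 of the 8 genes were called, and 993 genes in all in Apc Eif3h against Apc. Ankrd1, at 0 to 8 counts per library, is where depth limits most.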
